A study of Rattus norvegicus with 32 samples.

Results

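The genes that encode subunits of the NADPH oxidases were followed in C6 cells: Nox1, Nox4, Cybb, Duox2, Cyba, Noxo1, Ncf1, Noxa1 and Rac1. These are 9 of the 26583 gene names on the array, and each is read by 1 of its 30367 probes, the probe whose gene name in the scanner files is that symbol. The family was chosen from a readout of these arrays, the low Noxo1 signal in Ang II x Control at 6 h, so the members are described in that comparison without a test. C6 is an established line of rat glioma cells. The cells, grown to confluence in medium with serum, were left untreated (Control), given angiotensin II (Ang II) at 100 nM, or given the same Ang II after 30 min with 10 µM of an antagonist. The antagonist was Losartan, which blocks the AT1 receptor (Ang II+Los), or PD123319, which blocks the AT2 receptor (Ang II+PD123319), and no group received an antagonist alone. RNA was taken at 3 h and at 6 h, with 4 replicates in each of the 8 groups and 1 single-dye Agilent array for each replicate. The labels do not say whether replicates were separate cultures, so p-values measure the spread between these samples, which may be technical.

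NADPH oxidases carry electrons from NADPH across a membrane to oxygen and so make superoxide or hydrogen peroxide. The catalytic subunits encoded by Nox1, Nox4 and Cybb share the membrane partner encoded by Cyba, and Nox1 and the phagocyte enzyme also need an organiser protein, an activator protein and a Rac GTPase. In blood vessels, Ang II acting on the AT1 receptor is known to raise the activity and the expression of several of these subunits.

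The probes of Noxo1, Noxa1 and Rac1 are shown, since the differences described here turn on them. They are printed 5′ to 3′ as in the scanner files, whose genome build is rn4. The Noxo1 probe (NM_001106986) lies at chr10:13952912-13952971 on the + strand, and the Noxa1 probe (NM_001100171) at chr3:3244548-3244607 on the - strand. The 60 bases of the Rac1 probe (NM_134366) are spread over chr12:11390067-11391924 on the + strand, 1858 bases of the genome, so the probe reads across an intron.
Noxo1: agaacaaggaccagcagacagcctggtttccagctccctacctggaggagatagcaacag
Noxa1: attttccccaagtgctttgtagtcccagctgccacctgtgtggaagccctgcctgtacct
Rac1: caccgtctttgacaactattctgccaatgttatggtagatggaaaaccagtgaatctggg
Rac1 is printed on 10 spots of each array, and the other members are printed once, so for them a single spot decides the value of an array.

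The promoters of Noxo1 and Noxa1 are given because their probes were the ones past the limits 6 h after Ang II. RefSeq (GRCr8) gives one for 8 of the 9 members, Rac1 being without an entry. The 250 bases before the start are printed 5′ to 3′, at chr10:14227955-14228204 (+ strand) and chr3:28303824-28304073 (- strand).
Noxo1: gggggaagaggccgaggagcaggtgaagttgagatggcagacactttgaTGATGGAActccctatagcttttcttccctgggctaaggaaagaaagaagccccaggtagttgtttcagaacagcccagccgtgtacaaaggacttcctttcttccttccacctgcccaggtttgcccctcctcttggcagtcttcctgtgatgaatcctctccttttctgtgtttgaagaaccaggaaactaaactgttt
Noxa1: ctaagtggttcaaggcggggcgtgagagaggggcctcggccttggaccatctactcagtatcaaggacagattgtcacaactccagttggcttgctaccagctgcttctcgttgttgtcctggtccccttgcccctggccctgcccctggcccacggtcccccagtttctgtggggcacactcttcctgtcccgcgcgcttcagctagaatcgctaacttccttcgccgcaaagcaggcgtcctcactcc
Capitals mark a match, on either strand, to 1 of 6 motifs. The Noxo1 promoter held a match to the ATF4 element TGATGNAA, which 3.4% of the 33469 promoters hold, and no other motif. The Noxa1 promoter held none of the 6. The others searched were the TATA box TATAAA (12.9% of all promoters), the GC box GGGCGG (30.5%), the AP-1 site TGANTCA (6.34%), the cAMP response element TGACGTCA (1.59%) and the STAT site TTCNNNGAA (7.67%). Among the other members, Duox2 held a TATA box, Cybb and Duox2 held an AP-1 site, and Nox4, Cyba, Ncf1 and Duox2 held a GC box. The promoters differed in base composition, from 32% GC for Cybb to 72.8% for Nox4, with a median of 51.2% over all promoters.

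Each slide held 1 array of every group of a time interval, with Control at position 1, Ang II at 2, Ang II+Los at 3 and Ang II+PD123319 at 4, so position and treatment cannot be told apart. The replicate number is the slide, and slides were the blocks of each comparison. Scan session 1 held replicates 1 and 2 of 3 h and session 2 the other two, and at 6 h replicate 4 was scanned apart from the others. The scanner software called 55.9% to 64.7% of spots well above background at 3 h and 64.2% to 79.8% at 6 h. Its settings for this call differed between the time intervals, so detection is not compared between them. Of the glioma and astrocyte markers, S100b, Vim, Nes and Cspg4 passed that call on all 16 arrays at both times, whereas Slc1a3 and Fabp7 were on none. Gfap was on 0 of 16 at 3 h and 2 of 16 at 6 h, and Aldh1l1 on 3 and 14 of 16. Of 9 phagocyte and microglia markers, 5 were well above background on all arrays at 3 h and 7 at 6 h. Ptprc was on none, and Lyz2 on 0 of 16 at 3 h and 3 of 16 at 6 h. At 3 h, Csf1r was on 13 of 16 and Tyrobp on 10 of 16. The summed signal of these markers at 3 h lay between 1300 and 2040 in Control and between 1110 and 1940 in Ang II. At 6 h it lay between 1780 and 2820 in Control and between 1730 and 2510 in Ang II. The part of phagocyte transcripts in the results was not tested. The probes of Agtr1a, Agtr1b and Agtr2, which encode the AT1 and AT2 receptors, were well above background on 0 of 16 arrays at 3 h and 0 of 16 at 6 h. This gives only an upper bound on these transcripts, and the study measured both receptor subtypes by qPCR.

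Over both times, each with its own settings of the call, Ncf1, Rac1 and Duox2 were well above background on 32 of 32 arrays. Noxo1 was on 31, Cyba and Noxa1 on 30 each, Nox1 on 22, Cybb on 2 and Nox4 on 0. Nox4, the constitutively active catalytic subunit, was well above background on 0 of 16 arrays at either time. Cybb, the catalytic subunit of phagocytes, was on 0 of 16 arrays at 3 h and on 2 of 16 at 6 h, which were Control replicate 1 and Ang II+PD123319 replicate 1. For both genes the arrays therefore give only an upper bound, and no change is given for them. Nox1, the catalytic subunit of colon epithelium and smooth muscle, was well above background on 7 of 16 arrays at 3 h and on 15 of 16 at 6 h, and it was tested at 6 h.

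**Figure D1:**
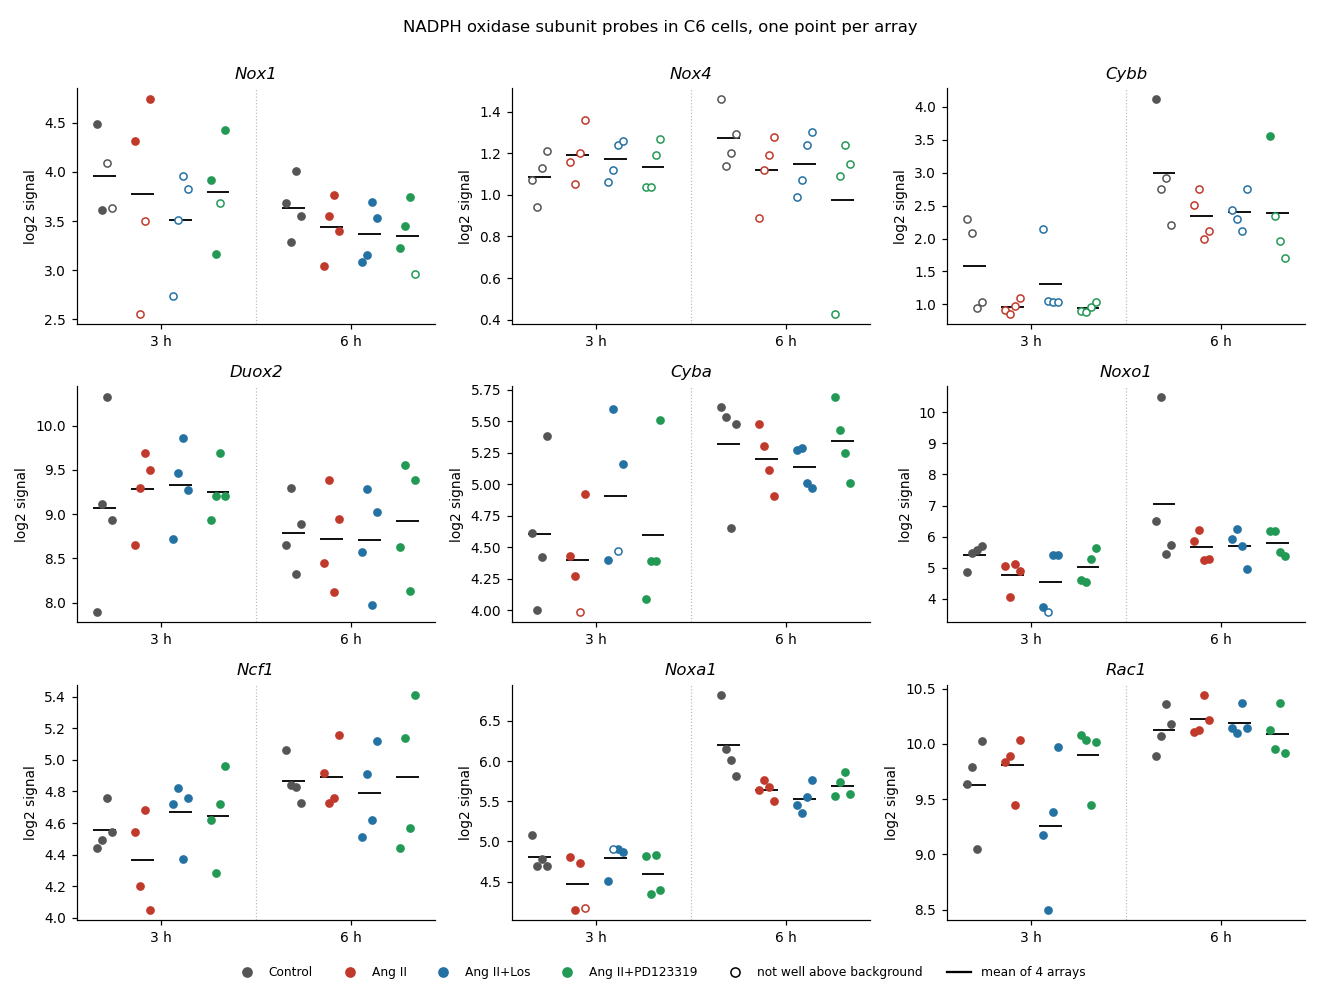
Normalized log2 signal (vertical axis, a separate range in each panel) of the 9 probes on the 32 arrays, by treatment (colour) and time interval (3 h at the left, 6 h at the right of each panel). Filled points are well above background, open points are not, and bars are means of 4 arrays. Nox4 has open points alone, the Noxo1 point at 10.48 stands far above the other Control arrays at 6 h, and the 4 Noxa1 Control points at 6 h lie above those of Ang II and Ang II+Los.

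A gene was tested at a time when 1 group or more had its probe well above background in every replicate, which held for 6 members at 3 h and 7 at 6 h. A member that passed through 1 group alone could pass because it was high there, but of those tested only Cyba, Noxo1, Noxa1 (3 h) and Nox1 (6 h) were below that level on any array. Values are log2 signals, normalized for 3 h and 6 h apart, and a log2 fold change is positive where the group named first is higher. The Losartan comparison is Ang II+Los x Ang II and the PD123319 comparison is Ang II+PD123319 x Ang II. Past the limits means an unadjusted p under 0.05 by limma with a fold change above 1.2 or below 0.8. At 3 h, 0 of 6 members passed in Ang II x Control, where 11.0% of 13630 genes did, and 0 members had an unadjusted p under 0.05. In the Losartan comparison at 3 h, 1 of 6 members passed (Rac1, lower), against 10.1% of all genes. In the PD123319 comparison at 3 h, 0 of 6 passed, against 2.64%, and 0 had an unadjusted p under 0.05. At 6 h, 2 of 7 members passed in Ang II x Control (Noxo1 and Noxa1, both lower), where 11.5% of 16446 genes did, and this count is a description only. At 6 h, 0 of 7 passed in the Losartan comparison, against 0.900% of all genes, and 0 of 7 in the PD123319 comparison, against 3.79%, with 0 members at an unadjusted p under 0.05 in both. These comparisons share their Ang II arrays with the one that chose the family. Each antagonist group was also set against Control, a comparison that is not among those of the study and that shares its Control arrays with Ang II x Control. There 1 of 6 members passed in Ang II+Los x Control at 3 h (Noxo1, against 20.0% of all genes) and 0 of 6 in Ang II+PD123319 x Control at 3 h (against 6.10%), where 0 had an unadjusted p under 0.05. At 6 h, 1 of 7 passed in each (Noxa1), against 11.4% and 13.5% of all genes, and these counts are descriptions only. Adjusted over all genes tested (Benjamini-Hochberg), the limma p of 0 members was under 0.05 in the comparisons at 3 h and in those of an antagonist with Ang II alone at 6 h.

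**Figure D2:**
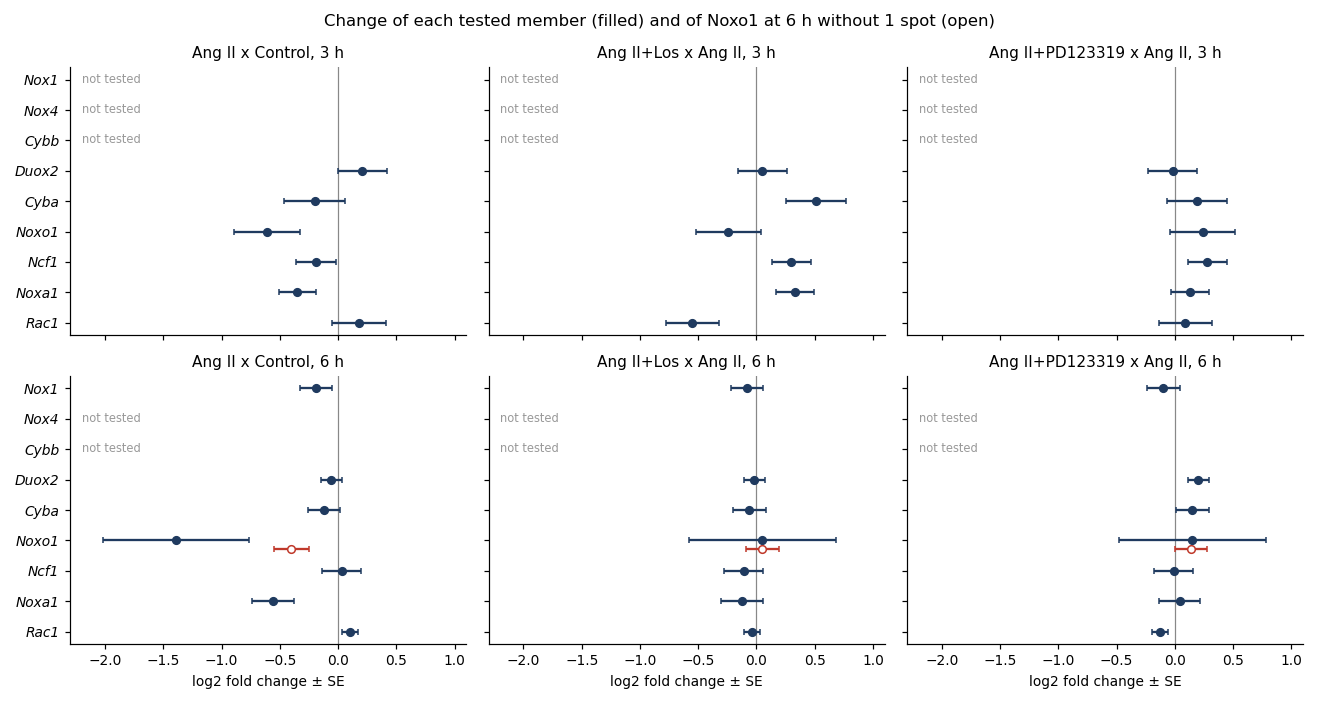
Log2 fold change of each tested member (horizontal axis, filled points, with the standard error of limma as bars) in the 3 comparisons of the study at 3 h (upper row) and 6 h (lower row). Open points give Noxo1 at 6 h with all spots of non-uniform background left out before normalization, 1 of them a Noxo1 spot. Noxo1 in Ang II x Control at 6 h moves from -1.39 with an SE of 0.63 to -0.40 with an SE of 0.15, and Noxa1 lies at -0.56 in the same panel.

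Nox1 was the catalytic partner of Noxo1 and Noxa1 that could be tested, and only at 6 h. Its Control log2 signals were 3.68, 3.29, 4.01 and 3.55, and those of Ang II were 3.04, 3.55, 3.77 and 3.40. The groups overlapped, and the log2 fold change in Ang II x Control was -0.19 ± 0.14 (SE). Ang II+Los had 3.08, 3.16, 3.69 and 3.53, and Ang II+PD123319 had 3.23, 3.45, 3.74 and 2.96. The Losartan comparison was -0.08 ± 0.14 (95% interval -0.39 to 0.23, adjusted p = 1 by limma) and the PD123319 comparison was -0.10 ± 0.14 (95% interval -0.41 to 0.21, adjusted p = 0.95). At 3 h, Nox1 signals lay between 2.56 and 4.74, with 2, 2, 0 and 3 of 4 arrays well above background in Control, Ang II, Ang II+Los and Ang II+PD123319.

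Duox2, a dual oxidase that makes hydrogen peroxide, varied more between slides than between groups. Its values at 3 h lay between 7.90 and 10.32 in Control and between 8.65 and 9.69 in Ang II. Ang II x Control at 3 h was 0.21 ± 0.21 (SE, 95% interval -0.25 to 0.67, adjusted p = 0.663 by limma). At 6 h, Control had 8.65, 9.30, 8.32 and 8.89 and Ang II had 8.45, 9.38, 8.12 and 8.95, a log2 fold change of -0.06 ± 0.09 (SE). The Ang II+PD123319 values at 6 h, 8.63, 9.56, 8.13 and 9.38, were higher than those of Ang II in 4 of 4 slides, by 0.20 ± 0.09 (SE, adjusted p = 0.803 by limma). Duox1 and its maturation factor Duoxa1 were well above background on all 16 arrays at both times, whereas Duoxa2, the maturation factor of Duox2, was on none.

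Cyba encodes the small membrane subunit that the Nox enzymes share. At 3 h, Control had 4.61, 4.00, 4.42 and 5.38, Ang II had 4.43, 4.27, 3.99 and 4.92, and Ang II+Los had 4.40, 5.60, 4.47 and 5.16. The highest Ang II+Los value was that of replicate 2. The Losartan comparison at 3 h was 0.51 ± 0.26 (SE, 95% interval -0.05 to 1.06, adjusted p = 0.427 by limma), higher in 3 of 4 slides but 0.23 without replicate 2, and Ang II x Control was -0.20 ± 0.26 (adjusted p = 0.749). At 6 h, Control had 5.61, 5.53, 4.65 and 5.48 and Ang II had 5.48, 5.30, 5.11 and 4.91, a log2 fold change of -0.12 ± 0.14 (SE). Ang II+PD123319 was higher than Ang II in 4 of 4 slides at 6 h, by 0.15 ± 0.14 (SE, adjusted p = 0.914 by limma).

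Noxo1 encodes the organiser that tethers the Nox1 complex to the membrane. With all arrays it had the lowest log2 fold change of the members in Ang II x Control at 6 h. This did not hold without spots of non-uniform background (-0.40) or without replicate 2 (-0.43), where Noxa1 was lower at -0.56 and -0.61. The Control log2 signals at 6 h were 6.51, 10.48, 5.43 and 5.74 in replicates 1 to 4. Those of Ang II were 5.87, 6.22, 5.25 and 5.28. The 10.48 of Control replicate 2 stood far above the other 3 Control arrays, with which the Ang II values overlap. With all 16 arrays, the log2 fold change of Noxo1 in Ang II x Control at 6 h was -1.39 ± 0.63 (SE), a mean of within-slide changes of -0.64, -4.26, -0.18 and -0.47. It was no longer past the limits under 9 of 16 alternatives, among them without replicate 1 (-1.64) or replicate 4 (-1.69) and with the normexp background (-0.58).

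The spot behind the 10.48 was examined. On that array its mean intensity was 1070 and its local background was 662, whereas the median local background of the array was 37. On the 31 other arrays the local background of the Noxo1 spot lay between 34 and 53, and its mean intensity between 54.6 and 169. Among the 19 transcript spots within 2 rows and 2 columns of it on the same array, the median local background was 971, and 28 spots of that array had a background over 10 times the array's median. The software had flagged the local background of this spot as non-uniform, which it did for no other spot of any member on any array. The spot itself carried no outlier flag and so remained in the values above. The deposited table leaves the Noxo1 value of this array blank, the single blank of Noxo1 among the 6 h arrays.

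**Figure D3:**
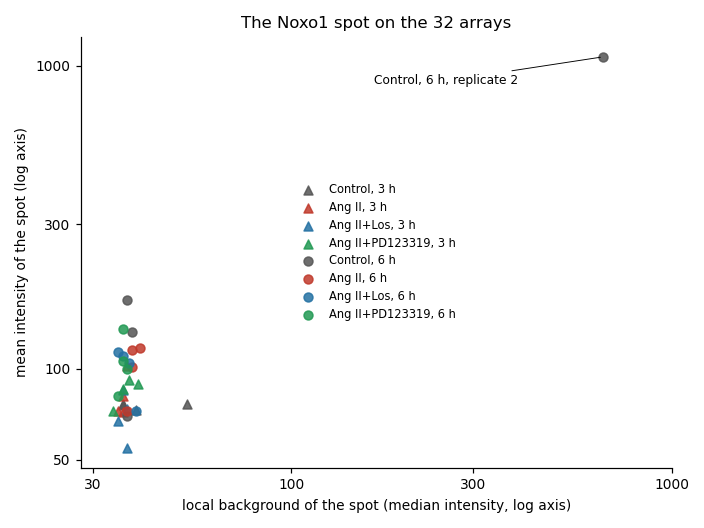
Mean intensity of the Noxo1 spot (vertical axis) against its local background (horizontal axis) on the 32 arrays, both on log axes, with colour for the treatment, triangles for 3 h and circles for 6 h. The spot of Control replicate 2 at 6 h lies at a background of 662 and an intensity of 1070, and the other 31 lie at a background of 34 to 53.

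All spots of non-uniform background were left out of the 6 h arrays before normalization, an alternative chosen after the values were seen. Noxo1 lost the 1 spot and rested on 15 arrays at 6 h, and its other values moved slightly (Control replicate 1 from 6.51 to 6.46). The Control mean was then 5.89 ± 0.52 (SD, n = 3) and the Ang II mean 5.65 ± 0.45 (SD, n = 4). The log2 fold change was -0.40 ± 0.15 (SE), a fold of 0.76 in place of 0.382, and Noxo1 was lower in Ang II in each of the 3 slides left. Leaving out replicate 2 as a whole gave -0.43. That array also set the error of comparisons that do not contain it, because the groups share 1 estimate of the spread. In the Losartan comparison at 6 h, Noxo1 had a log2 fold change of 0.05 with an SE of 0.63, and of 0.05 with an SE of 0.14 without the spot (95% interval -0.26 to 0.37, adjusted p = 1 by limma). In the PD123319 comparison at 6 h, the values were 0.15 with an SE of 0.63 and 0.14 with an SE of 0.14 without the spot (95% interval -0.18 to 0.46, adjusted p = 0.919 by limma). Both comparisons use the Ang II arrays of the comparison that chose the family, so their intervals and p-values are not free of that choice. Against Control, Ang II+Los moved from -1.33 to -0.35 and Ang II+PD123319 from -1.24 to -0.26.

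At 3 h, no Noxo1 spot had a background above 53, but the software marked that background as an outlier in Control replicates 3 (39) and 4 (53). The deposited table leaves Noxo1 blank on 2 of 16 arrays at 3 h. The Control log2 signals were 4.86, 5.46, 5.57 and 5.69. Those of Ang II were 5.05, 4.06, 5.11 and 4.91, and they overlapped with Control through replicate 1. The log2 fold change in Ang II x Control was -0.61 ± 0.28 (SE), lower in 3 of 4 slides, with an unadjusted p of 0.0511 and an adjusted p of 0.391 by limma. It was -0.60 in scan session 1 and -0.62 in session 2, and -0.35 without replicate 2. Without replicate 1 it was -0.88 and passed. With the normexp background it was -0.01. The Ang II+Los values at 3 h were 3.74, 3.59, 5.42 and 5.40. Replicates 1 and 2 were low and replicates 3 and 4 lay near Control. Ang II+Los x Control at 3 h gave -0.86 ± 0.28 (SE), past the limits with an adjusted p of 0.178 by limma, and it was lower in 4 of 4 slides (with the normexp background, -0.07 and not past). Within scan session 1 the mean change was -1.49 and within session 2 it was -0.22, and without replicate 2 it was -0.52 and no longer passed. The Ang II+PD123319 values at 3 h, 4.62, 4.53, 5.27 and 5.65, lay between these extremes. The Losartan comparison of Noxo1 at 3 h was -0.24 ± 0.28 (SE, 95% interval -0.86 to 0.37, adjusted p = 0.663 by limma), and the PD123319 comparison was 0.24 ± 0.28 (95% interval -0.38 to 0.85, adjusted p = 1).

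Ncf1 encodes the organiser of the phagocyte enzyme and was well above background on all arrays. At 3 h its signals lay between 4.05 and 4.96 and at 6 h between 4.44 and 5.41, and all groups overlapped. Ang II x Control was -0.19 ± 0.17 (SE, adjusted p = 0.637 by limma) at 3 h and 0.03 ± 0.17 (SE) at 6 h. The Losartan comparison at 3 h was 0.30 ± 0.17 (95% interval -0.08 to 0.68, adjusted p = 0.438 by limma), higher in 3 of 4 slides, and the PD123319 comparison was 0.28 ± 0.17 (95% interval -0.10 to 0.66, adjusted p = 1), higher in 4 of 4. Rac2, the Rac GTPase of blood cells, was well above background on no array.

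Noxa1 encodes the activator that binds Nox1 together with the organiser. At 6 h its Control log2 signals were 6.82, 6.15, 6.02 and 5.82. The Ang II values were 5.64, 5.76, 5.68 and 5.50, all below the lowest Control array. The Ang II+Los values, at 5.45, 5.35, 5.55 and 5.76, also lay below it. Those of Ang II+PD123319, at 5.56, 5.74, 5.87 and 5.59, overlapped with Control through 1 array. How many of all genes had groups apart in this way was not counted, and 11.5% of them were past the limits in Ang II x Control. The log2 fold changes against Control were -0.56 ± 0.18 (SE) for Ang II, -0.67 ± 0.18 for Ang II+Los and -0.51 ± 0.18 for Ang II+PD123319, folds of 0.679, 0.627 and 0.701. These 3 values share the 4 Control arrays, which the choice of the family also used, so whether they were past the limits is a description only. Control replicate 1 was the highest array. Without that replicate number the values were -0.35, -0.44 and -0.26, and the last no longer passed. In scan session 4, which holds replicate 4 alone, they were -0.32, -0.05 and -0.22. Noxa1 was lower than Control in 4 of 4 slides in each of the 3. With the normexp background the value for Ang II was -0.18 and did not reach the fold limit. The offset added there shrinks the log2 changes of weak spots, so this setting cannot tell whether the difference was lost. The Noxa1 spot had no non-uniform background on any array, and its background lay between 33.5 and 43, though the software marked that background as an outlier on 5 of 32 arrays. The deposited table leaves Noxa1 blank on 6 of 16 arrays at 3 h and 3 of 16 at 6 h.

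The antagonist groups were then set against Ang II alone. The Losartan comparison gave -0.12 ± 0.18 (SE, 95% interval -0.50 to 0.27, adjusted p = 1 by limma), and the PD123319 comparison gave 0.04 ± 0.18 (95% interval -0.34 to 0.43, adjusted p = 0.984). At 3 h the Control values were 5.08, 4.69, 4.78 and 4.69, and the Ang II values were 4.81, 4.15, 4.73 and 4.17. Noxa1 was again lower with Ang II in 4 of 4 slides, by a log2 fold change of -0.35 ± 0.16 (SE), which missed the limit at an unadjusted p of 0.0505 (adjusted p = 0.391 by limma). It was -0.41 within scan session 1 and -0.29 within session 2. Without replicate 1 it was -0.37 and past the limits, but without replicate 2 (-0.28), 3 (-0.45) or 4 (-0.29) it was not. With the normexp background it was -0.11. The Ang II array of replicate 4 (4.17) was not well above background. The Ang II+Los values at 3 h were 4.51, 4.91, 4.90 and 4.87. The Losartan comparison at 3 h was 0.33 ± 0.16 (SE, 95% interval -0.01 to 0.68, adjusted p = 0.427 by limma), higher in 3 of 4 slides. Its largest rises, in replicates 2 (0.76) and 4 (0.70), each include an array not well above background. These arrays are Ang II+Los replicate 2 and Ang II replicate 4. Ang II+Los x Control at 3 h was -0.01 ± 0.16 (SE), with -0.18 in scan session 1 and 0.15 in session 2. It was 0.17 without replicate 1 and -0.21 after scaling to the 75th percentile.

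**Figure D4:**
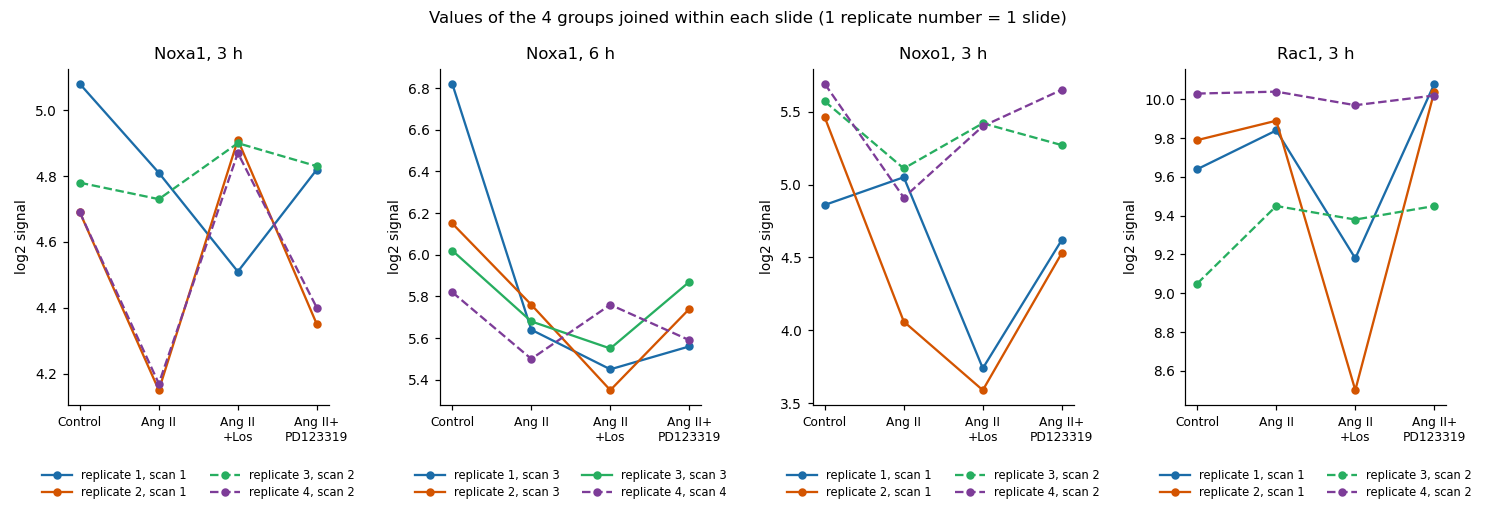
Normalized log2 signal (vertical axis) of Noxa1 at 3 h and 6 h, Noxo1 at 3 h and Rac1 at 3 h in the 4 groups (horizontal axis), with the 4 arrays of a slide joined by a line. Solid and dashed lines mark the scan sessions. The Noxa1 lines at 6 h all start at their highest point in Control, and in Ang II+Los at 3 h the 2 lines of scan session 1 drop to their lowest point for Noxo1 and Rac1.

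Rac1 encodes the small GTPase that switches on the Nox1 and phagocyte complexes and also acts on the cytoskeleton. It was well above background on every array, and the SD between its spots on an array was 0.10 to 0.24 at 3 h and 0.03 to 0.14 at 6 h on the log2 scale, over 8 to 10 spots. At 3 h, Control had 9.64, 9.79, 9.05 and 10.03. Ang II had 9.84, 9.89, 9.45 and 10.04, and Ang II+PD123319 had 10.08, 10.04, 9.45 and 10.02. Ang II+Los had 9.18, 8.50, 9.38 and 9.97, with replicates 1 and 2 low. The Losartan comparison at 3 h gave -0.55 ± 0.23 (SE), a fold of 0.684, past the limits with an adjusted p of 0.427 by limma. The within-slide changes were -0.66, -1.39, -0.07 and -0.07, so the mean was -1.03 in scan session 1 and -0.07 in session 2. Without replicate 2 it was -0.27 and without replicate 1 it was -0.51, and neither passed. In Ang II+Los replicate 2, the 10 spots lay between 8.51 and 8.89 before normalization. In Ang II+Los replicate 1 they had a mean of 10.10 before normalization, above the 9.59 of Control replicate 1 and near the 10.24 of Ang II replicate 1, so the 9.18 was low only after normalization. On the Ang II+Los array of replicate 2, 57.8% of spots were well above background, against 61.2%, 64.7% and 63.8% on the other 3 arrays of its slide. On that of replicate 1 the share was 64.5%. The part of this in the Rac1 values was not tested. Ang II x Control at 3 h was 0.18 ± 0.23 (SE, adjusted p = 0.741 by limma), higher in 4 of 4 slides.

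At 6 h the Rac1 groups lay close together, between 9.89 and 10.44. Ang II x Control was 0.10 ± 0.07 (SE). The Losartan comparison was -0.04 ± 0.07 (95% interval -0.20 to 0.11, adjusted p = 1 by limma), and the PD123319 comparison was -0.13 ± 0.07 (95% interval -0.29 to 0.02, adjusted p = 0.835). The change in the Losartan comparison was 0.50 ± 0.25 (SE) higher at 6 h than at 3 h, with an unadjusted p of 0.0525 and an adjusted p of 0.702 in the fit over both times. Of the 6 members tested at both times, 0 differed between 3 h and 6 h in the Losartan comparison or in the PD123319 comparison at an adjusted p under 0.05 by limma, and 0 at an unadjusted p under 0.05. For all 13617 genes tested at both times, 0 differed at the adjusted limit, and 687 and 234 did so unadjusted.

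Other genes of the pathway were taken from 7 lists, which cover further complex genes, the Rac cycle, kinases that act on the subunits, removal of superoxide and peroxide, NADPH supply, other sources of superoxide and the angiotensin receptors. At 3 h, 64 of their genes were tested, and 4 were past the limits as higher and 3 as lower in Ang II x Control. Among all genes the shares were 5.04% higher and 5.99% lower. Of the Rac regulators, Prex1, an exchange factor that loads Rac with GTP, was higher by 0.45 ± 0.13 (SE, adjusted p = 0.322 by limma), and Elmo2, part of another exchange factor, by 0.42 ± 0.18 (adjusted p = 0.376). In NADPH supply, Idh2, a mitochondrial isocitrate dehydrogenase, was higher by 0.61 ± 0.23 (adjusted p = 0.351) and Taldo1, the transaldolase of the pentose phosphate pathway, by 0.39 ± 0.17 (adjusted p = 0.379). Idh2 had Control values of 11.82, 12.47, 12.74 and 12.96 and Ang II values of 13.40, 13.09, 12.87 and 13.08, with the largest rise in replicate 1. Of 18 tested genes of superoxide and peroxide removal, Sod3, the extracellular superoxide dismutase, had -0.40 ± 0.12, and Ccs, the copper chaperone of Sod1, had -0.34 ± 0.14 (adjusted p = 0.322 and 0.365). Agtrap, which binds the AT1 receptor and promotes its internalisation, had -0.46 ± 0.10 (adjusted p = 0.322). The medians of the lists lay between -0.46, for the single receptor gene tested, and 0.13, where that of all genes was 0.

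At 6 h, 75 genes of these lists were tested, and 3 were past the limits as higher and 1 as lower in Ang II x Control, where the shares of all genes were 6.78% and 4.68%. Prex1 had Control values of 5.86, 4.73, 6.26 and 5.08 and Ang II values of 6.22, 5.91, 6.35 and 6.22. It was higher on all 4 slides, most on the slides where Control was low, with a log2 fold change of 0.69 ± 0.21 (SE). Prkce, a protein kinase C, had 0.69 ± 0.21 and Cat, which encodes catalase, had 0.45 ± 0.20. Ncf4, a regulatory subunit of the phagocyte enzyme, was the lower one. Its Control values were 5.98, 6.15, 5.21 and 5.68, and its Ang II values were 5.84, 4.22, 4.61 and 5.02, a log2 fold change of -0.83 ± 0.32 (SE). In the Losartan comparison, 7 of the 64 genes passed at 3 h (10.9%, against 10.1% of all genes) and 0 of 75 at 6 h (against 0.900%). The 7 were lower, while 636 of all genes were higher and 738 lower. Whether these 7 were lower in both scan sessions was not tested. In the PD123319 comparison, 1 of 64 passed at 3 h (1.56%, against 2.64% of all genes) and 2 of 75 at 6 h (2.67%, against 3.79%). These 3 were lower, while among all genes 275 were higher and 85 lower at 3 h, and 423 were higher and 201 lower at 6 h.

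For each tested member, the genes with a symbol whose slide-centred log2 signals followed it most closely over the 16 arrays of a time were listed. For Noxo1 at 6 h these were Igsf21 (r = 0.99), Fsip1 (r = 0.99) and Ptgr2 (r = 0.98). Their spots on Control replicate 2 had local backgrounds of 982, 1075 and 244, so these 3 correlations share the bright area of that array. With spots of non-uniform background left out, the 3 genes were Sh3bp5l (r = 0.90), Trmu (r = 0.89) and Foxd4 (r = 0.88) over 15 arrays. For Noxa1, Mras (r = 0.94), Pnma1 (r = 0.90) and Impdh1 (r = 0.90) came first at 6 h, and T2, Ace and Alpi (r = 0.92, 0.92 and 0.88) at 3 h. For Rac1 at 3 h, Sf3b4, Abhd14b and Zcchc24 (r = 0.98, 0.97 and 0.97) came first, and at 6 h Akr1b1, Arf6 and Pdgfc (r = 0.92 for each). For Noxo1 at 3 h they were Tmem229b, Galp and Fam134b (r = 0.95, 0.94 and 0.94). Cyba was nearest to Nek11 at 3 h (r = 0.92) and to Cdkn1b at 6 h (r = 0.96), Ncf1 to Igfbp7 (r = 0.89) and Timd2 (r = 0.86), Duox2 to Tmem127 (r = 0.89) and Ikbke (r = 0.93), and Nox1 to Layn at 6 h (r = 0.92). None of the genes listed was another member. The arrays share slides and were normalized together, and these values are descriptions of likeness without a test.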

How the data were processed

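The 32 arrays were scanned and read by Agilent Feature Extraction 9.5.3.1, per the file headers, and the authors deposited the scanner files with the intensity of each spot, together with a table of log2 values. These deposited log2 values equal the log2 of the processed intensity in 100% of 561803 values compared (within 1e-06), so no scaling between arrays had been applied, and 38.2% are blank. Here the processed intensity was used. Spots that the software marked as outliers were dropped, and at 3 h, where the software had set no surrogate, the error of the signal replaced signals not above background. Log2 signals were averaged over the spots of a probe, probes with over 2 gaps were dropped, and the 16 arrays of a time were normalized by cyclic loess (span 0.7, 3 iterations). Probes were kept where every replicate of 1 group or more was well above background. limma 3.58.1 in R 4.3.3 fitted the 4 groups of a time with the slide as a fixed block, and p-values were adjusted by Benjamini-Hochberg over all genes. The replicate number is the slide per the file headers and names: deviations from the group means of arrays on the same slide correlated at 0.15 to 0.92 at 3 h and 0.55 to 0.83 at 6 h. The time intervals were compared in 1 fit with 8 slides as blocks. The fit was tested on simulated data.

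The genes named are every member, every gene of the pathway lists past the limits in Ang II x Control, and for each member the 3 genes most like it, or the first of them for the members described last. Markers, receptors and partner genes are named besides for their detection alone. The members and lists were chosen with earlier results of these data known. Precision depends on the number of arrays: over all genes, standard errors of log2 fold changes had medians of 0.16 (3 h) and 0.10 (6 h). Alternatives were no block, paired and unpaired t-tests per gene, other scalings, the normexp background (offset 50), other filters, a fit of 8 arrays alone, the deposited log2 values, each replicate left out, and each scan session alone. The offset of 50 shrinks the log2 fold changes of weak spots, so the fold limit is harder to reach with it. Promoter sequences and gene symbols come from RefSeq (GRCr8), and figures were drawn with matplotlib 3.10.9. One gene of the pathway lists is not reported here.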

Additional observations from a re-analysis of the deposited data

Results flagged for a closer look

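Among the 52 groups of 4 arrays looked at, 1 array stood apart from the other 3 in 4, where chance gives about 1 in 20 groups, and the groups of a time share their slides. These were Noxa1 in Ang II+Los at 3 h, with replicate 1 at 4.51 against 4.87 to 4.91, and Cyba in Control at 6 h, with replicate 3 at 4.65 against 5.48 to 5.61. The other 2 were Rac1 in Ang II+PD123319 at 3 h, with replicate 3 at 9.45 against 10.02 to 10.08, and Rac1 in Ang II+Los at 6 h, with replicate 3 at 10.37 against 10.10 to 10.14. In the other groups Rac1 of replicate 3 was also the highest at 6 h, at 10.36, 10.44 and 10.37, and at 3 h it was the lowest in Control (9.05) and Ang II (9.45) but not in Ang II+Los (9.38). The Noxo1 value of 10.48 in Control replicate 2 at 6 h did not meet this limit, since the other 3 Control arrays were spread from 5.43 to 6.51.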

How the results depend on the processing

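The values of 65 member changes were recomputed under 1055 alternatives. Changes past the limits kept their sign in all of them, and 69 of the 1055 values had the other sign than a change that had not passed. The counts of members past the limits are small, and 49 of 177 moved by over 1.5 times. The cause was not tested. In Ang II x Control at 6 h, 2 members passed, 1 did without the replicate block (Noxo1, -1.39 with an SE of 0.8, was lost), and 1 also with an unpaired t-test, quantile normalization, no filter or the 8 arrays alone. With a paired t-test, the normexp background or the deposited values, which lack Noxo1, Noxa1 and Nox1, 0 passed. In Ang II x Control at 3 h, 0 passed, against 1 with quantile normalization or no filter. There were 2 after scaling to the 75th percentile or with the 8 arrays alone. The 1 with quantile normalization was Noxo1. With no filter, which also takes in the members not tested at 3 h, it was not Noxo1, Noxa1 or Rac1. The 1 of the Losartan comparison at 3 h became 0 without the replicate block, with either t-test and with the 8 arrays alone. The 1 of Ang II+Los x Control at 3 h became 0 without the block, with either t-test, the normexp background, the stricter filter or the deposited values. At 6 h, the 1 of Ang II+Los x Control became 0 with a paired t-test, the normexp background or the deposited values, and 2 after scaling to the 75th percentile, with the stricter filter or without spots of non-uniform background. The 1 of Ang II+PD123319 x Control at 6 h became 0 with either t-test, the normexp background or the deposited values, and 2 with quantile normalization. The 0 of the PD123319 comparison at 3 h became 1 after scaling to the 75th percentile. The 0 of Ang II+PD123319 x Control at 3 h became 1 with no filter or the 8 arrays alone. With no filter this 1 was again not Noxo1, Noxa1 or Rac1.

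With each replicate left out in turn, the counts ran from 0 to 2 in Ang II x Control, from 0 to 2 in the Losartan comparison, 0 to 3 in Ang II+Los x Control and 0 to 1 in Ang II+PD123319 x Control at 3 h. At 6 h they ran from 1 to 3, 0 to 0, 1 to 3 and 0 to 2 in the same order. Each member has 1 probe, so taking probes singly gives the same values. The pairing by slide changed no other count when the replicate block was left out.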
